A study of Homo sapiens with 12 samples.

Results

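The 10 genes described here encode the core of the MYC, MAX and MXD network of transcription factors: MYC, MYCN and MYCL, their partner MAX, the MXD family repressors MXD1, MXI1, MXD3 and MXD4, and the larger MAX-binding proteins MNT and MGA. They were taken as a list of named genes that uses no measured value, although it was drawn up with earlier results of these data known, and were matched by Ensembl identifier to 10 of the 60660 gene identifiers counted in each library. All 10 were among the 12830 protein-coding genes tested, that is, genes with a mean level over 0.5 FPKM (fragments per kilobase of exon, scaled to the library's total count) in at least 1 group. MYCN passed only through the siCHD4 group, where its mean was 0.586 FPKM, so a difference involving that group was built into its selection.

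RNA was sequenced from HEK293T cells, a human embryonic kidney line grown in DMEM with serum, after transfection with a control siRNA (siCTL, genotype given as WT) or an siRNA against CARM1, CHD4, HDAC2, GATAD2A or KDM1A (siCARM1, siCHD4, siHDAC2, siGATAD2A and siKDM1A, genotype given as a knock down of that gene). CARM1 is an arginine methyltransferase, CHD4, HDAC2 and GATAD2A are subunits of the NuRD chromatin remodeling complex, and KDM1A is a histone demethylase that associates with it; the study asked whether CARM1 and NuRD act on the same genes. Each of the 6 groups had 2 libraries, and the same 2 siCTL libraries served all 5 comparisons, so the comparisons are not independent of each other. The labels number the libraries without saying whether they came from separate cultures, so the p-values measure only the spread between these libraries. The cells carried no rescue construct, and which libraries were sequenced at which of the 2 companies named was not given in the sources used here.

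MYC, MYCN and MYCL are short-lived basic helix-loop-helix leucine zipper proteins that bind DNA only as dimers with MAX, most strongly at the E-box CACGTG, and raise transcription of genes for ribosome biogenesis, nucleotide synthesis and growth. MXD proteins and MNT compete for MAX and for the same E-boxes, and recruit SIN3 and histone deacetylases, which lower transcription. MGA also binds MAX and is part of a variant Polycomb complex, PRC1.6. The relative amounts of the MYC and MXD proteins are classically tied to proliferation against differentiation; only RNA was measured here.

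The libraries held 19308315 to 28648657 counts on genes. Each targeted transcript was lower in its own knockdown than in siCTL: CARM1 fell by 2.37, HDAC2 by 2.35, GATAD2A by 1.74 and KDM1A by 2.59 on the log2 scale, and CHD4 fell by 0.54 (SE 0.072), to 27.3 from 39.6 CPM (library-scaled counts). CHD4 shares 46.9% of its exonic bases with a read-through gene on the same strand that had no counts in any library, so its value rests on the rest of its exons, and CHD4 was also lower in siCARM1, by 0.32. GATAD2A was higher in siCHD4, with a log2 fold change of 1.09, and CARM1 was called higher in siKDM1A, at 0.26 (SE 0.049), at the fold of 1.2. Of 6 markers listed for the line, VIM, KRT8, KRT18 and LIN28B were over 0.5 FPKM in every library while PAX2 and NEFM were under it in every library; their summed level was 425.8 to 425.9 FPKM in siCTL, 535.3 to 543.1 in siCARM1, 596.3 to 599.6 in siCHD4, 452.8 to 463.5 in siHDAC2, 375.0 to 378.7 in siGATAD2A and 572.7 to 580.6 in siKDM1A. The sums moved with the groups, and their part in the results was not tested. The markers of other cell types PTPRC, DCN, ALB and TYR had at most 3 counts in any library. In such bulk RNA, a change in the share of cells with a transcript and a change in RNA per cell cannot be told apart.

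The E-box is the element through which the members act, so it is shown in their own promoters and in those of target genes named later. The RefSeq promoter table (GRCh38.p14, 250 bases before to 50 bases after each transcript start) held promoters for 9 of the 10 members. The promoter of MYC was absent from it and was not searched. Of the 9, 2 contained CACGTG, those of MXD4 and MNT. The motif reads the same on both strands, so 1 search covers both. Among all tested genes with a promoter there, 1318 of 10395 (12.7%) contained it. Each line gives 30 bases on the strand of the gene with the E-box in capitals. They were read at chr4:2262330-2262359 (minus strand) for MXD4, chr17:2401236-2401265 (minus strand) for MNT, chr2:96145536-96145565 (minus strand) for DUSP2 and chr12:6568242-6568271 (minus strand) for NOP2. The first 2 are members and the last 2 are targets with large rises in siCHD4. NOP2 passed the filter on levels only through siCHD4. The pair does not stand for all targets with large changes there. MAP3K6 and NOLC1, named later, gave no E-box in the search, and the E-boxes of HK2 and ODC1 are not shown.
MXD4: gggccgggccacCACGTGctgttgctaagc
MNT: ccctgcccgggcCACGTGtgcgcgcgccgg
DUSP2: cagactgcgcccCACGTGaggggcgggggc
NOP2: gctaggtccggattgCACGTGgagggccgc
A match is a description of the letters and not evidence of binding. In siCHD4, MXD4, at 20.9 and 21.4 FPKM, was not called, and MNT fell.

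In the siCTL libraries the repressor MXD4 was the most abundant member per length and MYCN the least. The mean levels over 2 libraries were 24.7 FPKM ± 0.588 (SD) for MXD4, 6.86 ± 0.031 for MXD3, 6.21 ± 0.243 for MXI1, 6.11 ± 0.111 for MGA, 5.41 ± 0.024 for MAX, 4.88 ± 0.244 for MNT, 4.69 ± 0.414 for MYC, 2.91 ± 0.113 for MXD1, 1.37 ± 0.151 for MYCL and 0.165 ± 0.033 for MYCN. Neighbours in this order whose libraries overlapped were MXI1 and MGA, and MNT and MYC; the other neighbours did not overlap. The order of the middle members depends on the length used: with the canonical transcript in place of all exons MAX moved from rank 5 to rank 3. The lead of MXD4 depends on it as well, with siCTL means of 43.9 FPKM for MXD4 and 30.5 for MXD3 by canonical length.

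Calls rested on edgeR's quasi-likelihood test: a gene counted as higher or lower when its p, adjusted by Benjamini-Hochberg over all tested genes, was 0.05 or less and its fold was 1.2 or more. Of the 50 combinations of member and knockdown, 11 were called higher, 9 lower and 30 neither. In siCHD4, 6 of the 10 members were higher, MYCN among them (24.0% of all tested genes were), and 2 were lower (24.9%). In siCARM1, 3 were higher (14.9%) and 2 lower (14.5%). In siKDM1A, 1 was higher (14.2%) and 2 lower (11.5%). In siHDAC2, 1 was higher (10.6%) and 1 lower (9.00%). In siGATAD2A, 0 were higher (15.7%) and 2 were lower (18.2%), and DESeq2 also called 0 higher there. At an unadjusted p under 0.05 in edgeR, without the fold minimum, 3 were higher there. Of these, MAX and MXI1 also passed the adjusted p and missed only the fold of 1.2. In the test of any difference among the 6 groups, 10 of 10 members passed, as did 91.1% of all tested genes, with adjusted p from 3e-14 for MYC to 0.0207 for MXI1; at that background the count says little about the members.

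MYC (ENSG00000136997.21; GRCh37 chromosome 8, 128747680 to 128755197, plus strand) encodes the proto-oncoprotein at the centre of the network, and its transcript rose in 4 of the 5 knockdowns. It stood at 4.98 and 4.40 FPKM in siCTL, 8.78 and 7.87 in siCARM1, 8.69 and 9.35 in siCHD4, 6.15 and 6.38 in siHDAC2, 4.88 and 4.72 in siGATAD2A and 6.78 and 6.96 in siKDM1A. Both libraries of siCARM1, siCHD4, siHDAC2 and siKDM1A lay above both siCTL libraries, and those of siGATAD2A lay between them. The log2 fold change was 0.99 (SE 0.072, adjusted p = 2.7e-13) in siCHD4, a 1.98-fold difference. It was 0.83 (SE 0.072, adjusted p = 6.3e-11) in siCARM1. It was 0.56 (SE 0.074, adjusted p = 3.4e-07) in siKDM1A and 0.43 (SE 0.074, adjusted p = 3.3e-05) in siHDAC2. In siGATAD2A the value was 0.04 (SE 0.076, adjusted p = 0.705). MYC was the member with calls in most pairs of knockdowns, 8 of 10; siCARM1 and siCHD4, and siHDAC2 and siKDM1A, were the pairs without a call.

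MYCN (chromosome 2, 16080672 to 16087129), the paralogue best known from neuroblastoma, was near the limit of detection. It was called in 2 of the 4 knockdowns where MYC was. It had 10 and 9 counts in siCTL, 24 and 25 in siCARM1, 39 and 42 in siCHD4, 15 and 22 in siHDAC2, 8 and 3 in siGATAD2A and 17 and 17 in siKDM1A. The siCHD4 libraries were the highest and the siGATAD2A libraries the lowest. It rose in siCHD4, at 1.87 on the log2 scale (SE 0.379, adjusted p = 7.3e-05), where the filter made a difference likely. In siCARM1 it was 1.12 (SE 0.421, adjusted p = 0.0284), a call lost without siCTL replicate 1, siCTL replicate 2 or siCARM1 replicate 2 and with DESeq2, with values of 0.92 to 1.32. It was 0.74, 0.64 and -1.01 in siHDAC2, siKDM1A and siGATAD2A, with SEs of 0.446, 0.454 and 0.583, and these were not called.

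MYCL (chromosome 1, 40361100 to 40367928), the paralogue first found in small cell lung cancer, rose only in siCHD4 by the test. Its level was 1.26 and 1.47 FPKM in siCTL, 1.88 and 1.32 in siCARM1, 1.87 and 1.70 in siCHD4, 1.14 and 1.18 in siHDAC2, 1.30 and 1.13 in siGATAD2A and 1.58 and 1.49 in siKDM1A. The siCARM1 libraries differed more from each other than those of any other group did. The log2 fold change in siCHD4 was 0.41 (SE 0.150, adjusted p = 0.0167); without siCTL replicate 1 it was 0.31 and without siCHD4 replicate 1 it was 0.33, both not called. In siCARM1 it was 0.23 (SE 0.152, adjusted p = 0.219), and this depended on the library kept: 0.45, called, without siCARM1 replicate 2 and -0.06 without siCARM1 replicate 1.

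MAX (chromosome 14, 65472892 to 65569413), the shared partner without which neither MYC nor MXD proteins bind E-boxes, rose in siCHD4. Its level was 5.40 and 5.43 FPKM in siCTL, 5.52 and 5.14 in siCARM1, 6.89 and 7.12 in siCHD4, 4.62 and 5.07 in siHDAC2, 6.23 and 6.46 in siGATAD2A and 5.57 and 5.12 in siKDM1A. The siCHD4 and siGATAD2A libraries lay above both siCTL libraries and the siHDAC2 libraries below. In siCHD4 the log2 fold change was 0.41 (SE 0.070, adjusted p = 6.2e-06). In siGATAD2A it was 0.23 (SE 0.070, adjusted p = 0.00744), under the fold of 1.2. MAX shares 16.1% of its exonic bases with FNTB and other genes on the opposite strand.

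MXD1 (chromosome 2, 70124820 to 70170077), the founding MXD repressor, induced when many cell types differentiate, was called in opposite directions. It was at 2.99 and 2.83 FPKM in siCTL, 2.18 and 2.58 in siCARM1, 3.94 and 3.74 in siCHD4, 2.43 and 2.24 in siHDAC2, 2.80 and 3.29 in siGATAD2A and 1.94 and 2.11 in siKDM1A. It rose in siCHD4, with a log2 fold change of 0.44 (SE 0.095, adjusted p = 0.00017). It fell in siKDM1A, at -0.52 (SE 0.104, adjusted p = 0.00015). In siCARM1 it fell by 0.30 (SE 0.101, adjusted p = 0.0159) and in siHDAC2 by 0.31 (SE 0.102, adjusted p = 0.0158). Those last 2 calls were lost without siCTL replicate 1 (-0.26 and -0.28), the siCARM1 call also without siCARM1 replicate 1 (-0.18) and the siHDAC2 call without siHDAC2 replicate 2 (-0.26).

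MXD3 (chromosome 5, 176728462 to 176739758), an MXD protein expressed in cycling cells, fell in 4 knockdowns. It was at 6.88 and 6.84 FPKM in siCTL, 5.50 and 5.08 in siCARM1, 3.63 and 3.59 in siCHD4, 6.17 and 6.55 in siHDAC2, 5.24 and 4.73 in siGATAD2A and 4.73 and 4.71 in siKDM1A. All 10 knockdown libraries lay below both siCTL libraries. The log2 fold change was -0.89 (SE 0.080, adjusted p = 4.3e-11) in siCHD4. It was -0.54 (SE 0.078, adjusted p = 1.6e-06) in siKDM1A, -0.46 (SE 0.077, adjusted p = 9.8e-06) in siGATAD2A and -0.37 (SE 0.077, adjusted p = 0.00018) in siCARM1. In siHDAC2 it was -0.10 (SE 0.075, adjusted p = 0.334). MXD3 shares 19.5% of its exonic bases with RAB24 on the same strand, where reads cannot be assigned, and RAB24, too, had lower counts, by 0.63 on the log2 scale in siCARM1 and 0.80 in siCHD4. In siGATAD2A and siKDM1A, where MXD3 fell too, RAB24 was not called (-0.08 and -0.34). A further overlap, of 24.2% of the exonic bases of MXD3, is with PRELID1 on the opposite strand.

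MXD4 (chromosome 4, 2249159 to 2263836), the most abundant repressor of the family here, was called lower only in siGATAD2A. Its level was 24.3 and 25.2 FPKM in siCTL, 23.2 and 21.4 in siCARM1, 20.9 and 21.4 in siCHD4, 26.3 and 27.0 in siHDAC2, 19.73 in both siGATAD2A libraries and 23.2 and 22.8 in siKDM1A. The siHDAC2 libraries lay above siCTL and those of the other knockdowns below it. In siGATAD2A the log2 fold change was -0.33 (SE 0.046, adjusted p = 5.9e-07). In siCARM1 and siCHD4 it was -0.15 and -0.19 (SE 0.046 each, adjusted p = 0.0076 and 0.00062), under the fold of 1.2.

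MXI1 (chromosome 10, 111967363 to 112047123), a further MXD repressor, was not called in any knockdown or pair of knockdowns by edgeR or DESeq2 with all 12 libraries. Still, 4 of 5 knockdowns and 1 of 10 pairs had an unadjusted p under 0.05 in edgeR. Its level ran from 6.04 FPKM in a siCTL library to 7.54 in a siCARM1 library, and all 10 knockdown libraries lay above both siCTL libraries, at 6.38 and 6.04. Its fold changes on the log2 scale were 0.21, 0.18, 0.09, 0.23 and 0.20 in siCARM1, siCHD4, siHDAC2, siGATAD2A and siKDM1A, with SEs of 0.070 to 0.071. Their adjusted p were 0.0158, 0.0259, 0.360, 0.0056 and 0.0217. The 4 under 0.05 were not called only because they lay under the fold of 1.2.

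MNT (chromosome 17, 2287367 to 2304398), a widely expressed MAX partner that represses MYC targets, fell in siCHD4. It was at 5.05 and 4.71 FPKM in siCTL, 4.53 and 4.07 in siCARM1, 3.35 and 3.30 in siCHD4, 4.44 and 4.94 in siHDAC2, 4.57 and 3.93 in siGATAD2A and 4.66 and 4.38 in siKDM1A. The siCHD4 libraries were the lowest of the 12. The log2 fold change in siCHD4 was -0.51 (SE 0.079, adjusted p = 1.2e-06). In siGATAD2A it was -0.20 (SE 0.076, adjusted p = 0.033), under the fold of 1.2, and the value passed it, at -0.31, without siGATAD2A replicate 1. MNT shares 12.2% of its exonic bases with a gene on the opposite strand, and with counts taken without strand it was called lower in siCARM1 (-0.27) and siGATAD2A (-0.27) too.

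MGA (chromosome 15, 41913332 to 42065279), the largest MAX partner and the scaffold of PRC1.6, rose in siCARM1 and siCHD4. It was at 6.18 and 6.03 FPKM in siCTL, 7.504 and 7.556 in siCARM1, 7.45 and 7.77 in siCHD4, 6.36 and 6.28 in siHDAC2, 6.43 and 6.62 in siGATAD2A and 5.92 and 6.06 in siKDM1A. The 4 libraries of siCARM1 and siCHD4 were the highest of the 12. Its log2 fold change was 0.36 (SE 0.045, adjusted p = 3.4e-08) in siCHD4 and 0.30 (SE 0.045, adjusted p = 1.8e-06) in siCARM1. In siGATAD2A it was 0.10 (SE 0.045, adjusted p = 0.0704).

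The difference between knockdowns was tested in the same fit for the 10 pairs of knockdowns. Of the 100 combinations of member and pair, 47 were called, against 33.9% over all tested genes; without MYCN, which passed the filter on levels through siCHD4 alone, 40 of 90 (44.4%) were. MYC had 8 calls, MYCN, MXD1 and MXD3 7 each, MYCL, MAX and MNT 4 each, MXD4 and MGA 3 each and MXI1 0. The pair siCHD4 and siHDAC2 differed for 9 of the 10 members (8 of 9 without MYCN), siCHD4 and siKDM1A for 7 (6 of 9), and siHDAC2 and siKDM1A for 1, MXD3. The share of all tested genes was taken over the 10 pairs together, not per pair, so these counts say little about the members. Against siCTL, siCHD4 had more of all tested genes called (24.9% lower, 24.0% higher) than siHDAC2 (9.00% and 10.6%) or siKDM1A (11.5% and 14.2%). MYC was higher in siCHD4 than in siHDAC2 by 0.55 (SE 0.068, adjusted p = 2.1e-08), and MAX by 0.56 (SE 0.069, adjusted p = 3.1e-08). MXD3 was lower in siCHD4 than in siHDAC2, at -0.79 (SE 0.080, adjusted p = 4.6e-10), and MNT at -0.47 (SE 0.078, adjusted p = 3.9e-06). Between siHDAC2 and siGATAD2A, MXD4 differed by 0.44 (SE 0.046, adjusted p = 2.4e-09) and MYC by 0.39 (SE 0.072, adjusted p = 4e-05).

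Summed as transcripts, the MYC paralogues stood higher relative to their repressor counterparts in each knockdown than in siCTL. The sum of MYC, MYCN and MYCL was 6.23 FPKM ± 0.296 (SD, n = 2) in siCTL. It reached 11.4 ± 0.363 in siCHD4, 10.3 ± 0.968 in siCARM1, 8.66 ± 0.053 in siKDM1A and 7.70 ± 0.204 in siHDAC2, and was 6.09 ± 0.279 in siGATAD2A. The sum of MXD1, MXI1, MXD3, MXD4 and MNT was 45.6 ± 0.043 in siCTL, and 38.7 ± 0.456, 41.4 ± 2.21, 41.4 ± 0.736, 46.6 ± 0.777 and 39.3 ± 0.298 in the knockdowns in the same order. The MYC sum was thus 14.1% and 13.2% of the repressor sum in the siCTL libraries, 25.5% and 24.1% in siCARM1, 28.98% and 29.82% in siCHD4, 16.4% and 16.6% in siHDAC2, 15.9% and 15.1% in siGATAD2A and 20.6% and 21.3% in siKDM1A. No knockdown library overlapped the siCTL libraries, and 2 libraries against 2 cannot give less than 0.333 in a two-sided exact permutation test, so no test was made. MYC made up 73.1% to 82.0% of its sum and MXD4 49.9% to 57.3% of the repressor sum. These ratios and shares use the length of all exons and would take other levels with canonical transcript lengths. In siGATAD2A the ratio moved with the repressor sum, since the MYC sums there, 6.28 and 5.89 FPKM, overlapped those of siCTL, 6.43 and 6.02.

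Genes that MYC is known to activate were taken from a list of 61, of which 60 were tested; the list was written with earlier results of these data known. In siCHD4, 29 of 60 were higher (48.3%, against 24.0% of all tested genes) and 6 lower (10%, against 24.9%). The median log2 fold change there was 0.24 beside 0.00 over all tested genes. NOP2, which passed the filter on levels only through siCHD4, is among the 29. In siCARM1, 11 were higher (18.3%, against 14.9%) and 5 lower (8.33%, against 14.5%), with a median of 0.07. For siGATAD2A the counts were 12 higher (20.0%, against 15.7%) and 4 lower (6.67%, against 18.2%), median 0.09. For siKDM1A they were 4 higher (6.67%, against 14.2%) and 4 lower (6.67%, against 11.5%), median 0.07. For siHDAC2 they were 3 higher (5%, against 10.6%) and 6 lower (10%, near the 9.00% of all tested genes), median -0.07. The siKDM1A count of 4 higher became 7 without siCTL replicate 2.

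Among the targets, NOLC1 and TCOF1, nucleolar proteins used in ribosomal RNA synthesis and processing, rose in 5 of 5 knockdowns. NOLC1 was at 93.7 and 87.7 CPM in siCTL and 196.9 to 239.3 CPM in the 10 knockdown libraries, with log2 fold changes from 1.149 in siHDAC2 to 1.37 in siCHD4 (SE 0.046 each). TCOF1 was at 291.9 and 295.0 CPM in siCTL and 391.5 to 462.1 CPM in the knockdowns. CBX3, a heterochromatin protein, fell in 4 knockdowns, by most in siCHD4, at 168.7 and 183.1 CPM against 246.7 and 242.9. DUSP2, a phosphatase of MAP kinases, was at 3.45 and 3.77 CPM in siCTL and 16.1 and 15.8 in siCHD4, a log2 fold change of 2.14 (SE 0.156, adjusted p = 3.2e-13). DUSP2 was also higher in siCARM1, by 1.06, and lower in siHDAC2, at -0.91. MAP3K6, a MAP kinase kinase kinase, fell by 1.57 (SE 0.073) in siCHD4, to 17.9 and 17.8 CPM from 52.8 and 53.0. NOP2, an RNA methyltransferase of the nucleolus, rose in siCHD4, at 1.42 (SE 0.293). Like MYCN, it passed the filter on levels only through siCHD4, so a difference involving that group was built into its selection. NOP2 was counted at 0.93 to 3.15 CPM only and shares 54.4% of its exonic bases with the read-through gene that also overlaps CHD4. Chosen after their values were seen, ODC1, the first enzyme of polyamine synthesis, and HK2, a hexokinase, rose by 0.74 (SE 0.038) and 1.24 (SE 0.060) in siCHD4.

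Of the 50 tested targets with a promoter in the table, 26 had an E-box and 24 had none. In siCHD4, 14 of the 26 were higher and none lower, and 11 of the 24 were higher and 3 lower. NOP2, which passed the filter on levels only through siCHD4, is among the 14. In siGATAD2A 4 of the 26 and 6 of the 24 were higher, in siCARM1 6 and 2, in siKDM1A 2 and 0 and in siHDAC2 0 and 0. The counts lower, in the same order, were 2 and 2 in siGATAD2A, 2 and 3 in siCARM1, 1 and 2 in siKDM1A and 3 and 3 in siHDAC2. Over all tested genes with a promoter, 28.98% of the 1318 with an E-box and 22.5% of the 9077 without were higher in siCHD4, while 21.3% and 25.7% were lower. In siCARM1 the shares higher were 15.5% and 14.7%, in siHDAC2 9.18% and 10.6%, in siGATAD2A 16.8% and 15.2% and in siKDM1A 12.97% and 13.7%. The shares lower were 12.8% and 14.4%, 8.19% and 8.63%, 14.5% and 18.1% and 9.71% and 11.3% in the same order. These shares are given without a test.

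Genes that MYC is known to repress had calls in both directions. Of 8 tested, 2 were lower and 3 higher in siCARM1 (14.5% and 14.9% of all tested genes were) and 4 and 2 in siCHD4 (24.9% and 24.0%). The counts were 3 and 0 in siHDAC2 (9.00% and 10.6%), 4 and 1 in siGATAD2A (18.2% and 15.7%) and 2 and 1 in siKDM1A (11.5% and 14.2%). In siHDAC2, 0 were higher also at an unadjusted p under 0.05 in edgeR, and DESeq2 called 0 higher. The medians were 0.04, -0.13, -0.16, -0.27 and -0.13 in this order of knockdowns. CDKN1B, which encodes the cyclin-dependent kinase inhibitor p27, fell in 4 knockdowns, most in siGATAD2A, at 59.9 and 56.6 CPM against 94.5 and 92.0 in siCTL. CDKN1A, which encodes the inhibitor p21, fell in siCARM1, siCHD4 and siGATAD2A, by 0.92, 0.84 and 0.92 (SE 0.048 each). THBS1, a secreted matrix protein, rose in siCHD4, to 112.8 and 109.6 CPM from 38.7 and 37.6, and fell in siHDAC2, to 21.5 and 20.0. NDRG1, a stress-responsive gene, fell in siGATAD2A, to 64.3 and 63.7 CPM from 126.5 and 125.1.

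The parallel MLX branch, in which MLX pairs with the glucose-sensing factors MLXIP and MLXIPL, had 3 genes tested: 1 was lower in siCARM1 (14.5% of all tested genes were), 1 lower and 1 higher in siCHD4 (24.9% and 24.0%) and 1 higher in siKDM1A (14.2%), and MLX itself was not called. MLXIP rose in siCHD4, with a log2 fold change of 0.44 (SE 0.043, adjusted p = 2.2e-10). MLXIPL, at 19.1 and 21.9 CPM in siCTL, fell in siCHD4 (-0.44, SE 0.120) and siCARM1 (-0.34, SE 0.118) and rose in siKDM1A (0.30, SE 0.113). Among 18 cofactors and turnover factors of MYC, 1 was lower and 3 higher in siCARM1 and in siCHD4, 1 and 1 in siHDAC2, 1 and 5 in siGATAD2A and 2 and 2 in siKDM1A. The shares of all tested genes lower and higher were 14.5% and 14.9% in siCARM1, 24.9% and 24.0% in siCHD4, 9.00% and 10.6% in siHDAC2, 18.2% and 15.7% in siGATAD2A and 11.5% and 14.2% in siKDM1A, so 1 and 3 of 18 in siCHD4 lay below them. ZBTB17, which encodes MIZ1, the partner through which MYC represses genes, rose in 4 knockdowns, by 0.30 to 0.38. KAT5, the TIP60 acetyltransferase, fell in 4, most in siKDM1A, at 58.3 and 53.0 CPM against 78.1 and 76.2, and shares 38.6% of its exonic bases with RNASEH2C on the opposite strand. CDK9, the kinase of the elongation factor P-TEFb, rose in siGATAD2A by 0.51 (SE 0.060), and RUVBL2, an ATPase of the INO80 and TIP60 complexes, rose in siCHD4 by 0.44 (SE 0.041).

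Of 8 other subunits of PRC1.6, 1 was lower and 2 higher in siCARM1 and in siCHD4, none was called in siHDAC2 by edgeR (5 had an unadjusted p under 0.05) or DESeq2, 2 were higher in siGATAD2A and 1 was lower and 1 higher in siKDM1A. In siCHD4 these were 12.5% lower, beside 24.9% of all tested genes, and 2 of 8 higher, beside 24.0%. The shares of all tested genes lower and higher were 14.5% and 14.9% in siCARM1 and 9.00% and 10.6% in siHDAC2. They were 18.2% and 15.7% in siGATAD2A and 11.5% and 14.2% in siKDM1A. PCGF6, the subunit that defines the complex, rose in 4 knockdowns, to 52.2 to 59.6 CPM from 43.8 and 44.9. TFDP1, the dimer partner of E2F6, rose in siCARM1, to 240.9 and 234.4 CPM from 162.5 and 163.4. RING1, an E3 ligase subunit, fell in siCHD4, to 33.2 and 35.3 CPM from 46.3 and 46.1.

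The genes whose log2 CPM followed a member most closely over the 12 libraries were listed by Pearson r, as a description over libraries that share groups and depth. For MYC these were POFUT1 (r = 0.972), AKIRIN1 (0.971) and LRP12 (0.966). POFUT1 averaged 21.4 FPKM in siCTL, 36.2 in siCHD4 and 20.5 in siGATAD2A. For MYCN they were CHSY3 (0.974), TTC28 (0.954) and CA12 (0.951), and for MYCL SRFBP1 (0.911), TEAD4 (0.896) and ESRP2 (0.889). For MAX they were RARA (0.977), NLE1 (0.976) and SELENOW (0.974), with RARA at 5.65 FPKM in siCTL, 8.501 in siCHD4 and 7.22 in siGATAD2A.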

How the data were processed

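RNA-seq of 12 libraries of HEK293T cells (6 siRNA groups of 2) was deposited as gene counts per library. Per the labels, the authors isolated RNA with column DNase digestion, made directional libraries, sequenced paired ends and, per the submitters' processing notes, used CASAVA 1.4, STAR 2.7.10 and the build hg19; the annotation was not given in the sources used here. The deposited values are counts of fragments per gene, not normalized; the column for the reverse strand was used, since forward-strand totals were 7.93% to 8.40% of it. Reads on more than 1 gene are left out by STAR, which lowers genes that overlap others. Of 60660 identifiers, 58662 matched GENCODE 44 on GRCh37, 1954 did not and 44 were pseudoautosomal copies; unmatched and pseudoautosomal identifiers held 1.75% to 2.61% of counts and were not tested. Promoters came from the RefSeq table on GRCh38.p14, without conversion of coordinates.

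FPKM was computed from counts, the union of exons and total counts on genes. Coding genes over 0.5 FPKM in at least 1 group mean (12830) were tested with edgeR 4.0.16 (R 4.3.3; TMM, quasi-likelihood, 1 model of 6 group means, 6 residual degrees of freedom), adjusted by Benjamini-Hochberg over all of them, and called at 0.05 and a fold of 1.2. The script was tested on simulated data. Sampling depth limits MYCN most; the spread between the 2 libraries of a group exceeded counting error (chi-square per degree of freedom 1.77 to 4.96). DESeq2 1.42.0 was an alternative; others were size factors, filters, counts without strand, a replicate block, no fold minimum, fits of 2 groups and leaving out each library.

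Genes named were the members; list genes called the same way in at least 4 knockdowns; the 3 of each list with the largest called change and no overlap with siCTL; the 3 genes most correlated with MYC, MYCN, MYCL or MAX; and the targeted genes. Members and lists were chosen with earlier results of these data known. A marker of other cell types is not reported here.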

Additional observations from a re-analysis of the deposited data

Results flagged for a closer look

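MXD1 and MLXIPL were called higher in some knockdowns and lower in others, against the same siCTL libraries. They were picked for those opposite calls. The edgeR tests between those knockdowns passed in each case, but this was nearly fixed in advance and adds no support. The MXD1 calls in siCARM1 and siHDAC2 were lost without siCTL replicate 1. MXD1 was higher in siCHD4 than in siCARM1 by 0.74 on the log2 scale (SE 0.096, adjusted p = 7e-08), than in siHDAC2 by 0.75 (SE 0.096, adjusted p = 4.8e-08) and than in siKDM1A by 0.96 (SE 0.098, adjusted p = 6.8e-10). MLXIPL was higher in siKDM1A than in siCARM1 by 0.64 (SE 0.11, adjusted p = 4.2e-05) and than in siCHD4 by 0.73 (SE 0.11, adjusted p = 1.8e-06). Both libraries of each higher group lay above both of the lower. The cause was not tested. With 2 libraries in each group, no check for a library far from its group could be made.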

How the results depend on the processing

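Of the 50 fold changes of members, the side of the threshold was kept by 50 with DESeq2 size factors in edgeR, with no filter beyond 1 count and in fits of the 2 groups alone, by 49 with DESeq2 (MYCN in siCARM1 was lost), by 45 of 45 with a filter of 1 FPKM, where MYCN was not tested, and by 43 of 45 with counts taken without strand, where MYCN was not tested either. The library numbers did not pair the samples (15 correlations of deviations between groups, from -0.132 to 0.136, 1 of them over 0.1; a sample did not always go with its own number), and the replicate block changed none of the 50 calls, with 47 member differences between knockdowns as without it and 3768 genes called in siCARM1.

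Dropping the fold minimum raised counts by construction. Genes called became 5992 in siCARM1, 4539 in siHDAC2, 6607 in siGATAD2A and 5432 in siKDM1A, beside 3768, 2512, 4351 and 3300. Members higher became 2 in siHDAC2, siGATAD2A and siKDM1A each. Activated targets lower became 9, 20, 8 and 8, and higher 21, 7, 26 and 16, in siCARM1, siHDAC2, siGATAD2A and siKDM1A. Repressed targets called in siKDM1A became 7, and MLX branch, cofactor and PRC1.6 genes called 19, 23, 11, 16 and 18 in siCARM1, siCHD4, siHDAC2, siGATAD2A and siKDM1A. The log2 balance against siCTL (0.863, 1.11, 0.276, 0.182 and 0.617) moved beyond its replicate spread with canonical transcript lengths in siCHD4 (1.23), siGATAD2A (0.246) and siKDM1A (0.687), and without strand in siCHD4 (1.05) and siHDAC2 (0.224).

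Leaving out each library in turn gave members lower of 1 to 2 in siCARM1 (1 without siCTL replicate 1 or siCARM1 replicate 1) and 0 to 1 in siHDAC2 (0 without siCTL replicate 1 or siHDAC2 replicate 2), members higher of 0 to 1 in siGATAD2A (1 without siCTL replicate 1), activated targets lower of 3 to 4 in siCARM1 and higher of 4 to 7 in siKDM1A (3 and 7 without siCTL replicate 2), repressed targets called of 3 to 5 in siCARM1 (3 without siCARM1 replicate 1) and 3 to 5 in siKDM1A (5 without siCTL replicate 1). A group left with 1 library was assumed to vary like the others. Uncalled values near 0 changed sign: in siCARM1, MYCL ranged from -0.06351 (without siCARM1 replicate 1) to 0.4451 (called, without siCARM1 replicate 2) and MAX from -0.07452 to 0.02621 (without siCARM1 replicate 2); in siHDAC2, MNT ranged from -0.1328 to 0.02801 (without siHDAC2 replicate 1; 0.00529 without siCTL replicate 1); in siGATAD2A, MYC ranged from -0.0524 (without siCTL replicate 2) to 0.1228 and MXD1 from -0.05184 (without siGATAD2A replicate 2) to 0.1778; and in siKDM1A, MAX ranged from -0.08617 to 0.04669 (without siKDM1A replicate 2). The balance, recomputed without each library as an alternative chosen after seeing the data, kept its sign throughout, from 0.135 in siGATAD2A to 1.16 in siCHD4. Depth limits MYCN, at 3 to 42 counts, and NOP2.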
